A study of Mus musculus with 6 samples.

Results

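The chloride intracellular channel (Clic) genes were examined in whole mouse ovaries of 2 genotypes. All 5 genes of the count table with the symbols Clic1, Clic3, Clic4, Clic5 and Clic6 were taken, of 44788 genes listed. Clic3 was chosen by its CPM and its fold change in this same contrast, so its difference is given as a description with no test, whereas Clic1, Clic4, Clic5 and Clic6 entered by family name. All 5 passed the filter on low counts, which kept 19423 genes for testing. The study compared ovaries of Bnc1+/+ mice (wild type, replicates 1, 4 and 7) with ovaries of Bnc1tr/tr mice (replicates 1, 2 and 3), with 3 ovary samples per genotype. Bnc1 encodes basonuclin 1, a zinc finger transcription factor of germ cells and stratified epithelia. Bnc1tr/tr mice are homozygous for a germline deletion of 5 bases in exon 4 that shifts the reading frame and ends the protein early, so every cell of the body carries it. All mice were on the C57BL/6 J background and 8 weeks old, and the labels name no other allele and no treatment in either genotype.

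CLIC proteins are small proteins that exist in a soluble form, with a fold like that of the omega class of glutathione transferases, and in a membrane-bound form. They were named for chloride conductance in artificial membranes, and several act in membrane traffic and at the actin cortex rather than as ordinary channels. CLIC3 recycles integrins from late endosomes together with the small GTPase Rab25 and is secreted as a partner of transglutaminase Tgm2. CLIC1 responds to oxidation, CLIC4 takes part in endothelial tube formation and TGF-beta signalling, CLIC5 links membranes to actin through ezrin and radixin, and CLIC6 (parchorin) is found in fluid-secreting epithelia. The ovary combines oocytes, granulosa and theca cells of the follicles, corpora lutea, vessels, stroma and surface epithelium.

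To show where Clic3 transcription starts, the 250 bases before its RefSeq start (GRCm38.p6) are printed beside those of Clic5, a relative with a different base composition. The Clic3 window was chr2:25456593-25456842 on the plus strand and that of Clic5 was chr17:44188322-44188571 on the plus strand, each written 5′ to 3′ with CpG dinucleotides in capitals.
Clic3: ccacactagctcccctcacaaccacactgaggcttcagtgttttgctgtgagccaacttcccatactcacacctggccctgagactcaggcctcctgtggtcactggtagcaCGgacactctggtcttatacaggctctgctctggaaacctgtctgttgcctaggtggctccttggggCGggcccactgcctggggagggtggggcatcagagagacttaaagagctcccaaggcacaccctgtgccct
Clic5: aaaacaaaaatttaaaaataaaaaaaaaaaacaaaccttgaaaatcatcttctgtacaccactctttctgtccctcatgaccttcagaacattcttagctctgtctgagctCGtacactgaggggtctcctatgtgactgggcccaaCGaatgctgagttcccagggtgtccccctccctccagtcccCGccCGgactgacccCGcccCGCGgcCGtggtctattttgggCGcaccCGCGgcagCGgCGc
The Clic3 window held 2 CpG dinucleotides and a GC content of 58.8%, and 18.8% of 32851 windows of the same length in RefSeq held fewer. The Clic5 window held 13 CpG, as did that of Clic1, and the Clic4 window held 21 CpG, against a median of 6 over all windows. The letters GGGCGG, read on both strands, occurred 1 time before Clic3, 1 time before Clic1, 4 times before Clic4 and 2 times before Clic5, and in 32.7% of all windows. The letters TATAAA occurred in none of these 4 windows and in 12.4% of all windows, and AAGGTCA occurred 1 time before Clic5, in no other of the 4, and in 4.08% of all windows. These matches describe the letters only. Each window lies before a RefSeq start. In the GENCODE M21 annotation the Clic1 window (chr17:35049993-35050242) falls inside the gene, and the Clic3 and Clic4 windows overlap the start of theirs.

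The 6 libraries held 25247770 to 34406296 counts on genes, and every Bnc1+/+ total was above every Bnc1tr/tr total. At these depths 3 counts, the limit that a count of 0 allows, corresponded to 0.0906 to 0.115 CPM, that is, counts scaled to a common library size, which covers counting error only. Bnc1 was at 13.9, 13.4 and 13.1 CPM in Bnc1+/+ against 18.7, 13.7 and 11.5 CPM in Bnc1tr/tr ovaries, and since a deletion of 5 bases leaves the transcript countable, its count does not check the genotype labels. Bnc1+/+ replicate 1 and Bnc1tr/tr replicate 3 stood apart in 10 oviduct markers, whose summed CPM was 172 and 577 in them and 45.4 to 54.7 in the other 4 ovaries. Bnc1tr/tr replicates 1 and 2 stood apart in 6 adipose markers, with sums of 337 and 250 CPM against 16.5 to 91.5 CPM in the other ovaries. Over all genes tested, 1372 (7.06%) passed an adjusted p of 0.05 in edgeR's quasi-likelihood test, 813 lower (4.19%) and 559 higher (2.88%) in Bnc1tr/tr, and the genotypes did not overlap in 30.8% of genes. The study describes biological replicates and comparisons of littermates, but the litter of each ovary sample is not given in the sources used here. No litter term was therefore fitted, and whether the samples are independent could not be checked. The p-values rest on the spread between these samples, with dispersions estimated with information from all genes.

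Clic3 was abundant in wild-type ovaries and low in mutant ovaries. The gene (ENSMUSG00000015093.15) lies on the plus strand at chr2:25456838-25458776 of GRCm38 in GENCODE M21, with 1012 exonic bases. Its counts were 1180, 1604 and 1127 in Bnc1+/+ replicates 1, 4 and 7 and 25, 35 and 35 in Bnc1tr/tr replicates 1, 2 and 3. On the CPM scale, normalized for composition with TMM, these were 43.9, 48.5 and 38.9 in Bnc1+/+ against 0.889, 1.35 and 1.23 in Bnc1tr/tr ovaries. All mutant ovaries lay far below all wild-type ovaries, each was above the 3-count limit, and reads were assigned to Clic3 in every mutant ovary. The means were 43.7 ± 4.80 and 1.16 ± 0.239 CPM (SD, n = 3 each), with a log2 fold change of -5.24 with an SE of 0.17, or 37.8-fold lower. These are the values by which Clic3 was selected, and nothing is read from them against the 4.19% of genes called lower.

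The spread of Clic3 within a genotype was set beside counting error. Its coefficient of variation was 10.97% in Bnc1+/+, where counting alone gives 2.77%. In Bnc1+/+ it was 2.63% for Clic1, 4.69% for Clic4, 7.55% for Clic5 and 57.5% for Clic6. In Bnc1tr/tr it was 20.6% for Clic3, where counting alone gives 17.8%. With 3 ovaries at 25 to 35 counts, spread beyond counting error in the mutant cannot be judged. Ranked by CPM among all genes tested, Clic3 stood at the 70.1 percentile in wild-type and the 15.4 percentile in mutant ovaries. Its log2 fold change had rank 6 from the bottom among all 19423 genes tested. Among the 16753 genes with a mean of at least 1 CPM it had rank 4. Clic3 was selected by this fold change, so its rank is a description. Of those 16753 genes, LOC102640128, Rn7s1 and Rn7s2 were lower, with the mutant counts of LOC102640128 at or under the 3-count limit. LOC102639280 followed Clic3 with -4.99, and Rn7s1, Rn7s2 and LOC102639280 are named after their values were seen. Rn7s1 and Rn7s2, copies of the signal recognition particle RNA, were at 16.2 ± 18.9 and 11.8 ± 15.1 CPM (SD) in Bnc1+/+, where Clic3 was at 43.7 ± 4.80 CPM. Of 5818 genes at least as abundant as Clic3 in Bnc1+/+, 40 had a log2 fold change under -2, and the lowest after Clic3 was Ssu2 at -4.19.

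The remaining 4 members did not pass the test. In this contrast 0 of 4 were called by the quasi-likelihood test of edgeR with p-values adjusted by Benjamini-Hochberg over all genes, against 7.06% of all genes tested, and 1 of 4 (Clic5) had an unadjusted p under 0.05. Among these 4 the genotypes did not overlap for Clic4 and Clic5 and overlapped for Clic1 and Clic6, against no overlap in 30.8% of all genes. Clic3 is left out of this count because it was selected on this contrast.

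**Figure D1:**
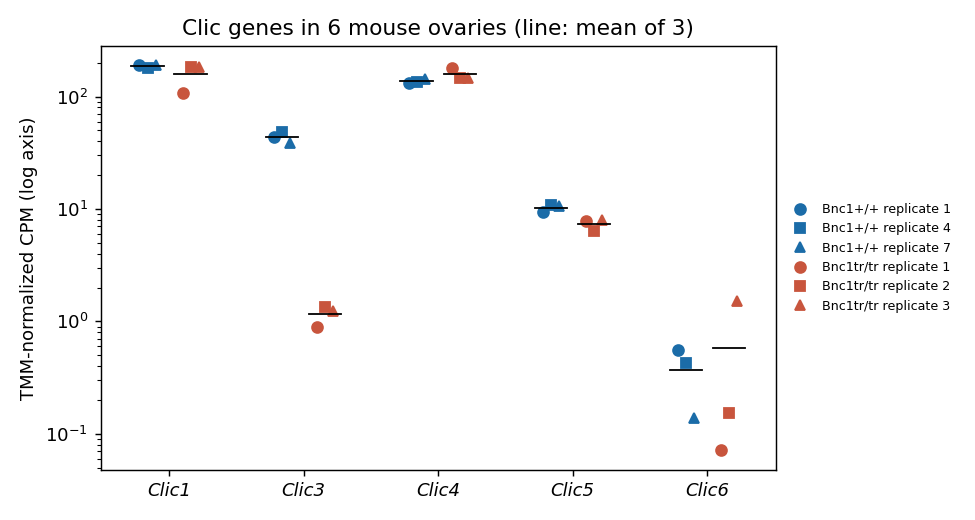
TMM-normalized CPM (log axis) of the 5 Clic genes in each of 3 Bnc1+/+ and 3 Bnc1tr/tr ovaries, with a line at the mean of each genotype. Clic3 lies at 38.9 to 48.5 CPM in wild-type ovaries and at 0.889 to 1.35 CPM in mutant ovaries, while Clic1 and Clic4 stay above 100 CPM in every ovary.

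Clic1 (ENSMUSG00000007041.9, chr17:35049966-35058749, plus strand) encodes the redox-sensitive member found in many tissues. It was at 190, 181 and 190 CPM in Bnc1+/+ against 109, 184 and 182 CPM in Bnc1tr/tr ovaries. Mutant replicate 1 was low and the other two mutant ovaries lay within the wild-type range, so the genotypes overlapped. The means were 187 ± 4.93 and 158 ± 43.0 CPM (SD, n = 3), with a log2 fold change of -0.24 with an SE of 0.19 and an edgeR adjusted p of 0.480. The mutant coefficient of variation was 27.2%, against 2.63% in wild type.

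Clic4 (ENSMUSG00000037242.8, chr4:135213969-135272814, minus strand) encodes the member known for vessel tube formation and nuclear entry upon stress. It was at 132, 135 and 144 CPM in Bnc1+/+ against 181, 146 and 146 CPM in Bnc1tr/tr ovaries. All mutant ovaries lay above all wild-type ovaries, 2 of them by a narrow margin, and replicate 1 was the highest. The log2 fold change was 0.20 with an SE of 0.11 and an edgeR adjusted p of 0.297. In Bnc1tr/tr replicate 1 low Clic1 and high Clic4 met, so the ratio of Clic1 to Clic4 CPM was 0.601 there, 1.26 and 1.25 in the other mutant ovaries, and 1.44, 1.34 and 1.32 in wild type. That ovary also had the lowest sum over 10 corpus luteum markers (7357 CPM) and the highest over 10 granulosa markers (7199 CPM) of the 6. Its endothelial (575 CPM), macrophage (393 CPM) and smooth muscle (1932 CPM) sums were the lowest as well, and its adipose sum (337 CPM) was the highest. The part of these cell types in its Clic1 and Clic4 levels was not tested.

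Clic5 (ENSMUSG00000023959.9, chr17:44188584-44280172, plus strand), the partner of ezrin and radixin at actin-rich membranes, was at 9.37, 10.8 and 10.7 CPM in Bnc1+/+ against 7.75, 6.35 and 8.00 CPM in Bnc1tr/tr ovaries. The 3 mutant ovaries lay below the 3 wild-type ovaries, with means of 7.37 ± 0.890 and 10.3 ± 0.774 CPM (SD). The log2 fold change was -0.48 with an SE of 0.15, and the edgeR adjusted p of 0.0932 missed the threshold, while DESeq2 gave an adjusted p of 0.0493. Of 10 endothelial markers, 5 fell and 1 (Vwf) rose in the same fit, against 7.06% of all genes called. The count of 6 was 2 without Bnc1+/+ replicate 4, 3 without Bnc1+/+ replicate 7 or Bnc1tr/tr replicate 1, 4 without Bnc1tr/tr replicate 2 and 5 without either remaining ovary, and Kdr and Pecam1 were called in all 6 fits. Their summed level was 838 to 1071 CPM in Bnc1+/+ against 575 to 677 CPM in Bnc1tr/tr, and its part in the Clic5 difference was not tested.

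Clic6 (ENSMUSG00000022949.9, chr16:92485736-92541243, plus strand) was close to the detection limit. Its counts were 15, 14 and 4 in Bnc1+/+ against 2, 4 and 43 in Bnc1tr/tr ovaries, or 0.0711 to 1.52 CPM in all. The highest ovary was mutant replicate 3 and the genotypes overlapped, with a log2 fold change of 0.65, an SE of 0.99 and an edgeR adjusted p of 0.733. Within each genotype the ovary with the most Clic6 was the ovary with the highest oviduct marker sum, 172 CPM in Bnc1+/+ replicate 1 and 577 CPM in Bnc1tr/tr replicate 3. In Bnc1+/+ this rests on 15 against 14 counts, since replicate 4 had 14 counts with an oviduct sum of 50.5 CPM. Without mutant replicate 3 the log2 fold change was -1.70 with an adjusted p of 0.280, and limma-voom gave -0.23 with all 6 ovaries, so the sign depended on that ovary and on the method. The oviduct markers Ovgp1, the oviductal glycoprotein, and Foxj1, a ciliated cell factor, were counted 12009 and 1052 times in that ovary and 45 to 2840 and 10 to 212 times in the other 5, and their part in the Clic6 level was not tested.

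The members were next set side by side per length, as CPM per kilobase of exon. In Bnc1+/+ ovaries the order was Clic1 (104 ± 2.74), Clic3 (43.2 ± 4.74), Clic4 (20.8 ± 0.978), Clic5 (1.17 ± 0.0882) and Clic6 (0.0953 ± 0.0547), with no overlap between neighbours. In Bnc1tr/tr ovaries it was Clic1 (87.9 ± 23.9), Clic4 (23.9 ± 3.06), Clic3 (1.14 ± 0.236), Clic5 (0.839 ± 0.101) and Clic6 (0.148 ± 0.207). Clic3 thus moved from second place in wild type to beside Clic5, whose mutant values overlapped with its own (0.879, 1.33 and 1.22 for Clic3 and 0.883, 0.723 and 0.911 for Clic5).

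Clic3 RNA made up 25.5%, 28.1% and 23.0% of the summed Clic level per kilobase in the 3 wild-type ovaries and 0.981%, 1.05% and 0.968% in the 3 mutant ovaries. The sum itself was 170, 171 and 167 CPM per kilobase in Bnc1+/+ against 89.6, 127 and 126 in Bnc1tr/tr. All mutant sums lay below all wild-type sums, but each sum includes Clic3, which was selected on this contrast. The separation of the sums therefore says nothing about the other members. No other member was higher in the mutant, per kilobase, by as much as Clic3 was lower. The share of Clic1 was 59.1% to 63.1% in wild type and 67.3% to 80.8% in the mutant, and that of Clic4 was 11.8% to 13.1% and 17.5% to 30.7%. These shares rise when Clic3 drops out of the sum, and only the levels above carry a test.

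Other genes of chloride channel and transporter families, accessory subunits included, were taken as a comparison list and not as a pathway. Of 62 listed genes 47 were tested, and 8 (17.0%) passed the edgeR threshold, 4 lower and 4 higher, against 7.06% of all genes tested, with a median log2 fold change of -0.05 against 0.02 over all genes. The genotypes did not overlap for 18 of the 47, against 30.8% of all genes. The other 15 were too low to be tested. The count depended on single ovaries: it was 1 without Bnc1+/+ replicate 4, 3 without Bnc1+/+ replicate 7 or Bnc1tr/tr replicate 3, and 5 without any of the other three. The number of calls over all genes dropped in the same fits, from 1372 to 320, 518 and 634 without those 3 ovaries in turn. Without Bnc1+/+ replicate 4 the called share was 2.08% of the chloride genes and 1.60% of all genes, and without Bnc1+/+ replicate 7 it was 6.12% and 2.59%.

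The SLC12 cation-chloride cotransporters held 3 of these calls among 7 genes tested, against 7.06% of all genes tested. Slc12a7, which carries potassium and chloride out of cells, was at 734, 701 and 518 CPM in Bnc1+/+ against 164, 229 and 229 CPM in Bnc1tr/tr ovaries. All mutant ovaries were below all wild-type ovaries, and the edgeR adjusted p of 0.0035 for a log2 fold change of -1.65 (SE 0.18) kept its side of the threshold under all 15 alternatives. Slc12a8 fell from 128, 122 and 98.1 to 8.00, 34.2 and 34.8 CPM (log2 fold change -2.18, SE 0.47, edgeR adjusted p 0.0357), with mutant replicate 1 the lowest, and was called in 1 of 6 fits that each left out an ovary, the one without mutant replicate 1. Slc12a5, known as the potassium-chloride exporter of neurons, rose from 5.57 ± 0.297 to 8.39 ± 0.417 CPM (log2 fold change 0.59, SE 0.14, edgeR adjusted p 0.0439) and was called in 0 of those 6 fits.

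Of 8 anoctamins tested 3 were called, against 7.06% of all genes tested. Ano1, the calcium-activated chloride channel of epithelia and smooth muscle, was at 80.5, 75.4 and 70.2 CPM in Bnc1+/+ against 103, 93.8 and 101 CPM in Bnc1tr/tr, higher in every mutant ovary (log2 fold change 0.40, SE 0.085, edgeR adjusted p 0.0351). Ano7 rose at a low level, from 0.272 ± 0.0281 to 0.735 ± 0.171 CPM (1.43, SE 0.33, edgeR adjusted p 0.0427), and Ano10 fell from 58.7 ± 1.34 to 45.9 ± 1.08 CPM (-0.35, SE 0.073, edgeR adjusted p 0.0314). Ano1 was called in 1 of the 6 fits without an ovary, that without mutant replicate 2, and Ano7 and Ano10 were called in 0 of 6.

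The tweety family gene Ttyh3 and the anion exchanger family gene Slc26a5 were called in 5 of those 6 fits, and without Bnc1+/+ replicate 4 their edgeR adjusted p was 0.0508 and 0.0607. Ttyh3 was at 281, 295 and 285 CPM in Bnc1+/+ against 150, 189 and 175 CPM in Bnc1tr/tr, lower in every mutant ovary (-0.75, SE 0.10, edgeR adjusted p 0.00656). Slc26a5, which encodes prestin, the motor protein of cochlear outer hair cells, was near the limit in wild type at 0.186, 0.151 and 0.138 CPM and at 2.03, 0.847 and 1.27 CPM in the mutant (3.10, SE 0.44, edgeR adjusted p 0.00752). None of the 7 genes tested of the ClC list, which are 6 Clcn genes and their accessory subunit Ostm1, passed. None of the 5 subunits of the LRRC8 volume-regulated channel passed either, against 7.06% of all genes tested. Their smallest p-values belonged to Clcn4 (102.7 ± 10.5 and 78.9 ± 1.41 CPM, log2 fold change -0.38, edgeR adjusted p 0.0513) and Lrrc8e (13.4 ± 1.74 and 17.7 ± 2.03 CPM, 0.40, edgeR adjusted p 0.128). Clcn4 passed in DESeq2 (adjusted p 0.00879), in edgeR's robust fit (0.0458) and in edgeR without Bnc1+/+ replicate 1 (0.0475). Without that ovary 2 of 8 ClC genes tested were called lower, against 3.93% of all genes called.

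**Figure D2:**
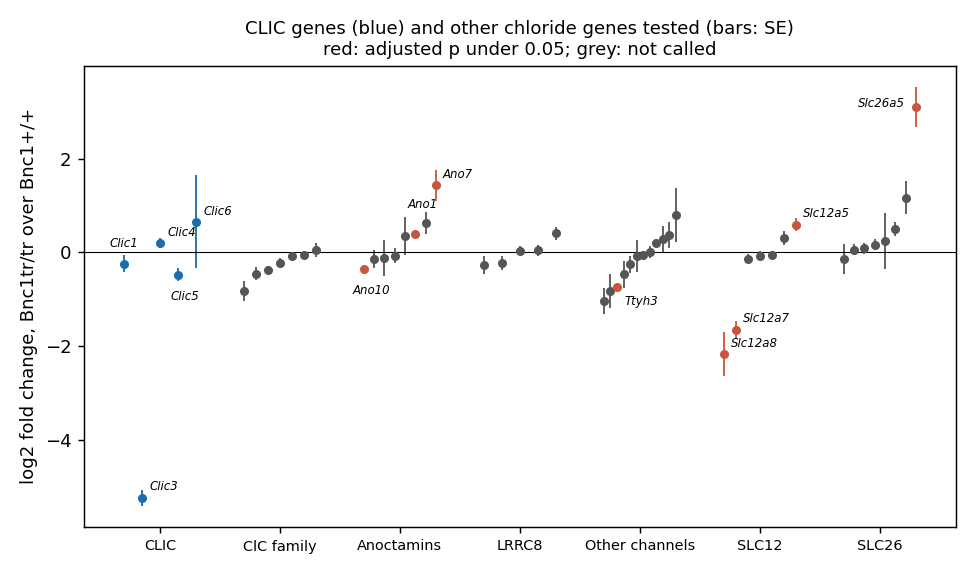
Log2 fold change (Bnc1tr/tr over Bnc1+/+) with its SE as bar for the 5 Clic genes in blue and the 47 other chloride genes tested, by family, in red where the edgeR adjusted p was under 0.05. Clic3 at -5.24 lies below all other genes drawn, of which Slc12a8 at -2.18 is the next and Slc26a5 at 3.10 the highest.

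Genes of proteins that act with CLIC proteins showed no call. Of 26 partner genes, all tested, 0 passed in edgeR, with 9 at an unadjusted p under 0.05, and 4 passed in DESeq2 and 0 in limma-voom. Over all genes the shares were 7.06% in edgeR, 24.2% at an unadjusted p under 0.05, 12.5% in DESeq2 and 6.71% in limma-voom. The median log2 fold change of the partners was 0.05, and the genotypes did not overlap for 10 of the 26, against 30.8% of all genes. Among 6 partners of CLIC3, Tgm2 was at 251, 233 and 249 CPM in Bnc1+/+ against 316, 314 and 287 CPM in Bnc1tr/tr, with every mutant ovary higher (0.32, SE 0.082, edgeR adjusted p 0.0582). Itgb1, the beta subunit of recycled integrins, was at 420 ± 10.95 and 351 ± 14.6 CPM (-0.26, edgeR adjusted p 0.0931), and its partner subunit Itga5 at 103 ± 8.82 and 87.8 ± 19.1 CPM (-0.23, edgeR adjusted p 0.418).

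The GTPase Rab25, a gene of epithelial cells, was low in both genotypes, at 0.967 to 2.04 CPM in Bnc1+/+ against 0.847 to 3.49 CPM in Bnc1tr/tr. The matrix protease Mmp14 was at 150 ± 41.2 and 134 ± 12.3 CPM. The kinase Mapk15 was at 0.621 to 1.86 CPM in wild type and at 0.356, 0.616 and 7.61 CPM in mutant replicates 1, 2 and 3, and its high value lay in the same ovary as that of Clic6 and of the oviduct markers. Neither Rab25, Mmp14 nor Mapk15 passed the edgeR test (adjusted p of 0.635, 0.635 and 0.489). Of the actin-linking partners, moesin (Msn) came nearest, at 197 ± 9.996 and 158 ± 9.80 CPM (-0.31, SE 0.084, edgeR adjusted p 0.0676), and of the partners of CLIC4, dynamin Dnm1, at 34.5 ± 3.31 and 44.8 ± 5.02 CPM (0.38, edgeR adjusted p 0.0918).

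Clic genes share a fold with omega glutathione transferases and glutaredoxins, of which 1 of 6 was called, against 7.06% of all genes tested. Gsto1, an omega transferase, fell from 68.8 ± 3.53 to 51.4 ± 3.83 CPM (-0.42, SE 0.088, edgeR adjusted p 0.033) and was called in 1 of the 6 fits without an ovary, that without mutant replicate 2.

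The position of the genes was examined next. The exons of the 5 members share no base with those of another GENCODE M21 gene, but Clic3 lies within the span of Paxx, and whether reads were counted by strand is not given in the sources used here, so the transcript behind the 25 to 35 counts of the mutant ovaries cannot be told apart. Among the 5 protein-coding genes on either side of Clic3 in RefSeq, 7 of 10 were tested and 3 were called, 2 lower and 1 higher, against 4.19% called lower and 2.88% called higher over all genes, and nothing particular to the region is read from so few genes. Abca2, a lipid transporter of endosomes and lysosomes upstream of it, was at 178, 186 and 205 CPM in Bnc1+/+ against 87.5, 107 and 90.8 CPM in Bnc1tr/tr (-0.996, SE 0.11, edgeR adjusted p 0.00325). Ptgds, the prostaglandin D synthase gene downstream, was at 11.9, 16.7 and 21.1 and at 6.12, 6.81 and 6.13 CPM (-1.38, SE 0.21, edgeR adjusted p 0.00993). Both were lower in every mutant ovary, by far less than Clic3, and without Bnc1+/+ replicate 4 the edgeR adjusted p of Ptgds was 0.0616.

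The ATP-hydrolysing enzyme gene Entpd2, the fifth gene upstream, rose from 8.30 ± 1.54 to 14.7 ± 1.46 CPM (0.82, SE 0.16, edgeR adjusted p 0.0271), and it did not pass without Bnc1+/+ replicate 4 or 7 or mutant replicate 2 or 3 (edgeR adjusted p 0.0600 to 0.124). Npdc1, C8g, Fbxw5 and Traf2 had log2 fold changes of -0.07, -0.73, -0.25 and -0.02 and edgeR adjusted p-values of 0.661, 0.117, 0.0852 and 0.933. Fut7 (2 to 11 counts) and Lcn12 (0 to 3 counts) were too low to be tested, and Paxx had no row under its symbol.

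Clic4, Clic5 and Clic6 each lie beside genes of the Runx and Rcan families, and 2 of those 6 genes were called, against 7.06% of all genes. Runx2, a transcription factor of bone and of ovulatory follicles next to Clic5, was at 117, 126 and 159 CPM in Bnc1+/+ against 14.1, 36.3 and 29.1 CPM in Bnc1tr/tr. Every mutant ovary was below every wild-type ovary, with a log2 fold change of -2.34 (SE 0.32, edgeR adjusted p 0.0067), and the call held in all 6 fits without an ovary. Clic5 itself had a log2 fold change of -0.48. Rcan3, a calcineurin regulator near Clic4, fell from 38.5 ± 0.440 to 27.2 ± 2.33 CPM (-0.50, SE 0.091, edgeR adjusted p 0.0195) and did not pass without any 1 of the wild-type ovaries (edgeR adjusted p 0.0563 to 0.0949). Runx3, next to Clic4, had a log2 fold change of -0.93 with an adjusted p of 0.0619. Runx1, Rcan1 and Rcan2 had log2 fold changes of 0.22, -0.09 and -0.02 and did not pass.

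Of the 10 neighbours of Clic4, 2 were called lower and 1 higher, against 4.19% and 2.88% of all genes. They were Rcan3 and, named after their values were seen, Nipal3 (-0.72) and Rhd (1.0). Around Clic5, Runx2 was the 1 call among 9 genes tested, and around Clic1 and Clic6 0 of 6 tested genes each were called in edgeR.

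**Figure D3:**
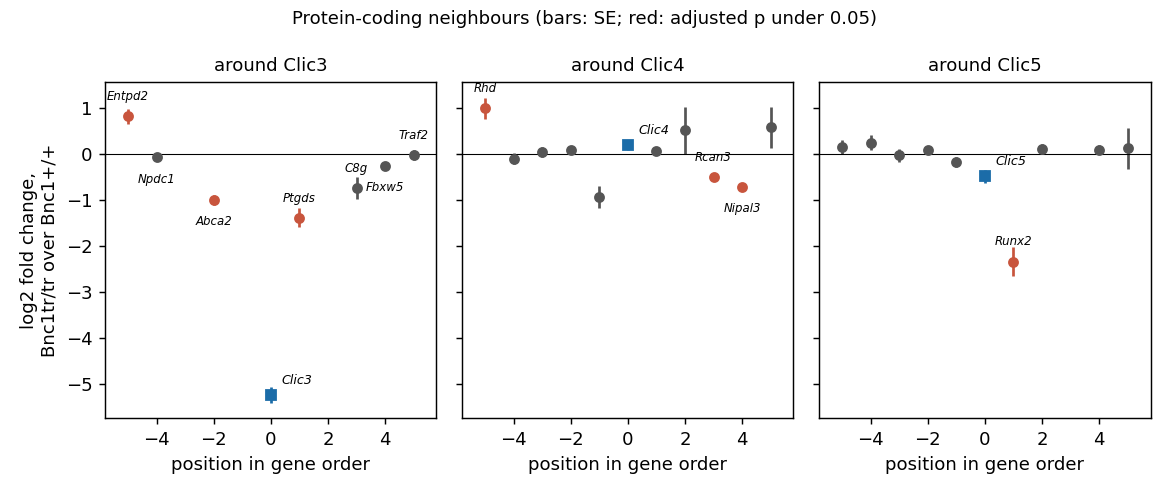
Log2 fold change (Bnc1tr/tr over Bnc1+/+, bars SE) of the tested protein-coding genes within 5 positions in gene order on either side of Clic3, Clic4 and Clic5, with the Clic gene as a blue square at 0 and edgeR adjusted p under 0.05 in red. Clic3 at -5.24 stands below its neighbours Abca2 (-0.996) and Ptgds (-1.38), and Runx2 (-2.34) stands below Clic5 (-0.48).

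Genes with a pattern across the 6 ovaries most like that of Clic3 were found by the root mean square difference of mean-centred log2 CPM, a measure that uses the same contrast and is given as a description. The nearest 5 of all genes tested had differences of 0.217 to 0.778, against a median of 2.61 over all genes. The smallest difference, that of LOC102640128, depends on the prior count of 2, since its mutant counts were at or under the 3-count limit, and no fold is given for it. LOC102640128 had 66, 127 and 69 counts in Bnc1+/+ against 0, 1 and 0 counts in Bnc1tr/tr ovaries. Ssu2 was at 71.4, 105 and 97.9 CPM in Bnc1+/+ against 3.73, 6.43 and 4.86 CPM in Bnc1tr/tr.

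The metalloendopeptidase gene Mmel1 was at 145, 157 and 102 and at 5.73, 10.7 and 13.9 CPM. The cadherin gene Cdh15, known from muscle, was at 39.5, 34.3 and 31.9 and at 0.711, 2.93 and 3.45 CPM, and the calcium release channel gene Ryr1 at 29.6, 39.8 and 35.4 and at 2.81, 2.81 and 2.19 CPM. In these genes too every mutant ovary lay below every wild-type ovary, with log2 fold changes of -4.19 for Ssu2, -3.74 for Mmel1, -3.90 for Cdh15 and -3.75 for Ryr1.

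**Figure D4:**
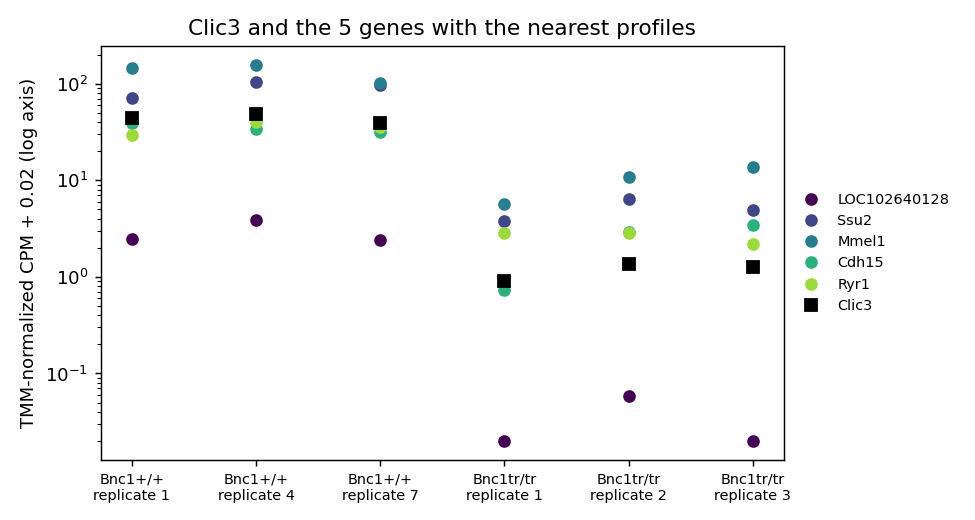
TMM-normalized CPM plus 0.02 (log axis) of Clic3 (squares) and of the 5 genes with the nearest profiles in each of 6 ovaries. All 6 genes sit at lower levels in the 3 mutant ovaries than in the 3 wild-type ovaries, and Clic3 is at 38.9 to 48.5 and 0.889 to 1.35 CPM.

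Markers of ovarian cell types were measured beside the Clic genes, since in whole ovaries fewer cells of a type and less RNA per cell cannot be told apart. Of 10 corpus luteum markers 8 fell in edgeR, led by the luteinizing hormone receptor gene Lhcgr (691 ± 132 and 85.9 ± 6.90 CPM, -3.01, adjusted p 0.000235), and Akr1c18 and Parm1 did not pass. This count of 8 was 2 to 7 when 1 ovary was left out, 2 without Bnc1+/+ replicate 4 or 7, 3 without Bnc1tr/tr replicate 3 and 5 without Bnc1+/+ replicate 1, and Lhcgr and the lipoprotein receptor gene Scarb1 were called in all 6 of these fits. Over all genes 4.19% were called lower. Their summed level was 23411 to 28108 CPM in Bnc1+/+ against 7357 to 12733 CPM in Bnc1tr/tr, and none of the 10 was at 0 in any ovary. The luteal sum was lower in every mutant ovary, and so was the endothelial sum. Clic3 was selected for its fall in this contrast, so any sum that separates the genotypes goes with it. The part of either sum in the Clic3 difference was not tested. Within the mutant ovaries the luteal sum was 7357, 12733 and 11188 CPM where Clic3 was at 0.889, 1.35 and 1.23 CPM, and within wild type it was 23411, 28108 and 27176 CPM where Clic3 was at 43.9, 48.5 and 38.9 CPM.

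Apart from the luteal and endothelial sums, the sums overlapped between genotypes. They were 4271 to 5383 and 4490 to 7199 CPM for 10 granulosa markers, 586 to 760 and 726 to 1101 CPM for 12 oocyte markers, and 1712 to 2060 and 1899 to 2785 CPM for 6 theca markers. Smooth muscle (1974 to 2152 and 1932 to 2112 CPM), surface epithelium (332 to 390 and 348 to 460 CPM) and macrophage sums (574 to 624 and 393 to 786 CPM) overlapped as well. Markers of oocytes, granulosa cells and theca cells were present in every ovary. Adipose markers summed to 16.5 to 91.5 CPM in Bnc1+/+ against 35.4 to 337 CPM in Bnc1tr/tr. The number of markers called was 3 of 12 for oocytes, 1 of 10 for granulosa cells, 0 of 6 for theca, 2 of 8 for smooth muscle, 0 of 9 for surface epithelium, 0 of 8 for macrophages, 1 of 10 for oviduct (Pax2) and 1 of 6 for fat, against 7.06% of all genes. Without single ovaries these counts were 0 to 5 for oocytes, 0 to 2 for granulosa cells, oviduct, macrophages and fat, 1 to 3 for smooth muscle, 0 to 1 for surface epithelium and 0 for theca. Without Bnc1+/+ replicate 4 the oocyte, granulosa, oviduct and fat counts were each 0 and the smooth muscle count was 1.

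**Figure D5:**
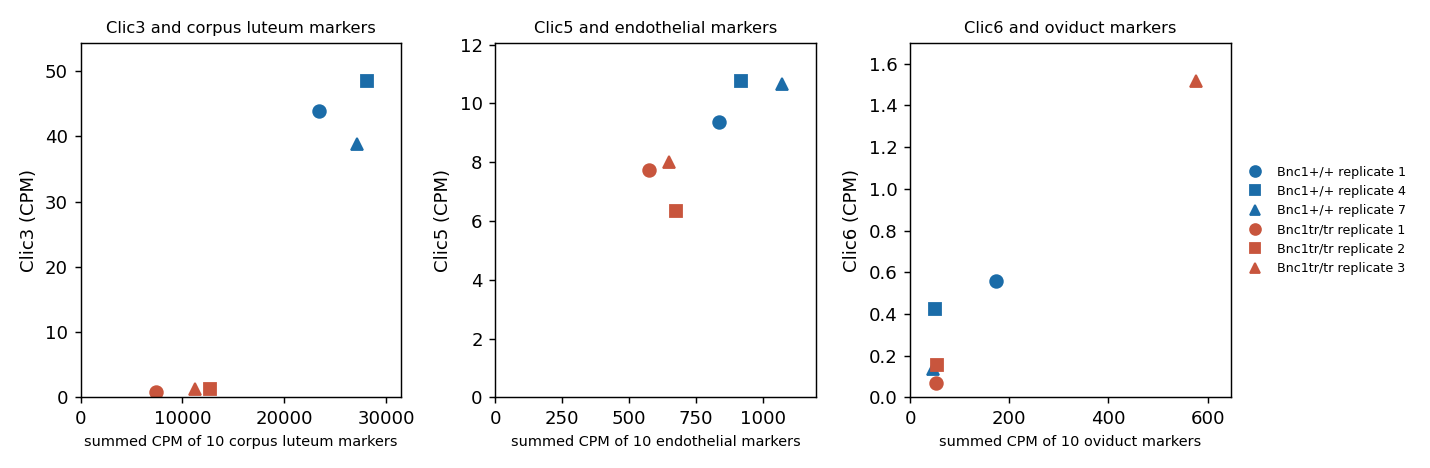
Level of Clic3, Clic5 and Clic6 (CPM) in each ovary against the summed CPM of 10 corpus luteum, endothelial and oviduct markers, respectively, with symbols by ovary and colour by genotype. Clic3 and the luteal sum are both lower in the 3 mutant ovaries, and Clic5 and the endothelial sum likewise. Both sums separate the genotypes, so neither is particular to the gene it is drawn with. The highest Clic6 value, 1.52 CPM, belongs to the ovary with an oviduct sum of 577 CPM.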

How the data were processed

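The authors extracted RNA from ovaries with TRIzol, prepared single-end Ion Total RNA-Seq libraries and sequenced them on an Ion Proton instrument. They deposited raw read counts per gene symbol, 1 whole number per gene and ovary, without normalization. The submitters' processing notes list mm10 and a pig build without a role, and the aligner and counting tool are not given in the sources used here. Genes were filtered with filterByExpr (minimum count 10), normalized with TMM and tested with edgeR 4.0.16 in R 4.3.3 (quasi-likelihood, 2 genotypes, two-sided, no covariate), with Benjamini-Hochberg adjustment over 19423 genes and a threshold of 0.05. DESeq2 1.42.0 and limma 3.58.1 (voom) were alternatives, beside other scalings, filters, a robust fit, a prior count of 2 and leaving out each ovary. CPM values are TMM-normalized, and profiles used log2 CPM with a prior count of 2. Each SE of an edgeR log2 fold change was its absolute value divided by the square root of the quasi-likelihood F statistic. For Clic3 this SE carries the same information as a test on the values that selected it, so it is a description only. The pipeline was tested on simulated counts. Replicates differed by more than sampling noise (chi-square per degree of freedom 15.6 to 58.5).

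Named genes were all Clic genes, the called members of the chloride, partner, omega transferase and Runx/Rcan lists, the member with the smallest p of each list without a call, the 5 protein-coding genes on either side of Clic3 and the 5 nearest profiles. All 6 partners of CLIC3 were named, 5 of them outside that rule. Older symbols in the table were matched through RefSeq synonyms. The members and lists were chosen with earlier results of these data known. Positions came from GENCODE M21 and promoters from RefSeq, which held windows for 4 of the 5 members (not Clic6).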

Additional observations from a re-analysis of the deposited data

How the results depend on the processing

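The log2 fold change of Clic3 was -5.36 to -5.08 over 15 alternatives. Those of Clic1 (-0.37 to -0.03) and Clic4 (0.09 to 0.30) kept their sign and did not pass under any of them. Clic5 stayed negative (-0.61 to -0.38) and passed in DESeq2 alone (-0.48). Clic6 reversed in limma-voom (-0.23) and ranged from -1.70 to 1.17 when single ovaries were left out, and it was too low to be fitted with at least 10 counts required in every ovary or with both ovaries of high oviduct markers left out. The 1372 genes called overall became 2420 in DESeq2, 320 to 1282 without single ovaries, and 304 without both ovaries of high oviduct markers, an alternative chosen after seeing the data that also left 1 chloride gene. The 8 chloride genes called became 12 in DESeq2, 7 in limma-voom and 1 to 5 without single ovaries. The partner count of 0 became 2 with library size as the only scaling and 4 in DESeq2. Of 19 other named genes called, none reversed. The 5 nearest profiles among them were selected on this contrast, and of the remaining 14, Abca2 and Slc12a7 passed under every alternative. Npdc1 and Traf2, not called, turned positive with library size only (0.0302 and 0.0794), where the median of all genes was 0.12 instead of 0.02, and Traf2 ranged from -0.0745 to 0.0790 without single ovaries, with 0.0234 without Bnc1+/+ replicate 1. Except where fewer ovaries or genes entered the fit, the cause of these changes was not tested. No paired analysis was possible because the litter of each ovary sample is not given. The labels do not say that a shared replicate number marks a pair. Depth limits Clic6, at 2 to 43 counts.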
